A study of Homo sapiens with 14 samples.

Results

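The 7 genes described here encode carbonic anhydrases, or close relatives of them, and were followed across every siRNA group of an RNA-seq experiment in OVCAR4 cells, an established human line of high-grade serous ovarian cancer. They were CA2, CA13, CA9, CA12, CA5B, CA8 and CA11, 7 of the 58219 genes in the count table. Table rows were taken as members when their identifier mapped to one of these symbols. The family was chosen by measured values of these libraries, since CA2 was lower and CA9 higher on loss of SOX17, so every comparison that holds siSOX17 or siDual libraries is given below as a description, with no test.

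The 14 libraries fell into 7 groups of 2, all from the same line, plated at 300000 cells, reverse transfected with 120 nM siRNA, given fresh medium at 24 h and harvested at 72 h. The groups received a pool against the transcription factor gene PAX8 (siPAX8), against SOX17 (siSOX17), against both of these genes (siDual), against MECOM (siMECOM) or against WT1 (siWT1), or 1 of 2 non-targeting pools (siNT1 and siNT2). The 4 non-targeting libraries together are called the controls, and each knockdown was set against the mean of siNT1 and siNT2, so the comparisons with controls share those libraries. The cells were a single line and each knockdown used a single pool. Nothing in the labels tells if both libraries of a group were transfected independently, so p-values measure only the spread between libraries, which may be technical.

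Carbonic anhydrases are zinc enzymes that interconvert carbon dioxide and water with bicarbonate and a proton, and so take part in pH control, ion transport and the supply of bicarbonate to metabolism. The members differ in where they work. CA2 and CA13 are cytosolic enzymes, CA9 and CA12 are membrane enzymes whose active site faces the outside of the cell, and CA5B works in mitochondria. CA8 and CA11 are related proteins that lack the catalytic activity. CA9 is a standard marker of hypoxia because its promoter is a target of the hypoxia-inducible factors (HIF), and CA12 is known as an oestrogen receptor target in breast cancer cells.

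Promoter sequence was at hand for 3 members, CA9, CA12 and CA5B, in a RefSeq table (GRCh38.p14) of windows that run from 250 bases before to 50 bases after the start that RefSeq gives each gene. Those starts are not the gene starts printed below, which come from GENCODE 29: all 3 RefSeq starts lie inside the GENCODE genes, and that of CA5B far inside. The windows were searched on both strands for the core letters of the hypoxia response element, ACGTG or GCGTG. The CA9 promoter held 1 match, 18 bases before the RefSeq start, and the CA12 promoter held 2. The 30-base stretches around them are shown because CA9 and CA12 are the members on the cell surface and had opposite responses in several groups. Capitals mark the match, which lay on the strand opposite to the gene and is therefore read here as its reverse complement.
CA9 (chr9:35673898-35673927, plus strand): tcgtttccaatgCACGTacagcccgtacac
CA12, match before the RefSeq start (chr15:63382063-63382092, minus strand): gcggatctcaccCACGCctgccagcagctc
CA12, match after the RefSeq start (chr15:63381797-63381826, minus strand): acggcacccaggctgcgcgCACGCggtccc
The CA5B window, at its internal RefSeq start, held 7 matches. At least 1 match stood in 48.4% of the 35116 promoters in the table, 21.4% with ACGTG and 36.5% with GCGTG, so these letters are common. The letters ATTGT, a core of SOX factor motifs, were in none of these 3 windows and in 27.4% of all promoters.

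Gene counts summed to between 40832825 and 49803860 per library, and 27628 to 29311 genes had at least 1 count. PAX8 stood at 32.8 and 38.3 CPM (read counts scaled to library size) in siPAX8, against 191.8 to 225.1 CPM in controls. SOX17 was at 15.7 and 13.1 CPM in siSOX17, against a mean of 110.6 CPM in controls, and MECOM at 8.76 and 16.4 CPM in siMECOM, against a mean of 129.9 CPM in controls. In siDual, PAX8 was at 52.8 and 50.6 CPM and SOX17 at 15.9 and 17.7 CPM. PAX8 was also lower in siWT1, at a mean of 114.9 CPM, against 204.8 CPM in controls (log2 fold change -0.83 ± 0.07 SE). WT1 had 0 and 1 counts in siWT1, against only 14 to 22 counts per library in controls, so siWT1 targets a transcript that was scarce before knockdown. MSLN, a serous marker like WT1, was also scarce, at 11 to 48 counts per library, while EPCAM was between 189.5 and 276.2 CPM. The 10 serous markers, mostly KRT7, KRT8 and KRT18, summed to 8426 to 10790 CPM in siPAX8, 13000 to 13270 CPM in siSOX17, 18160 to 20790 CPM in siDual, 4622 to 5374 CPM in siMECOM and 3831 to 4105 CPM in siWT1, against 4152 to 4966 CPM in controls. Mitochondrially encoded transcripts took 7.91 to 11.0% of counts in knockdown libraries, against 5.34 to 6.13% in controls, and no call on a member changed when these transcripts were left out. Summed fibroblast and leukocyte markers also moved with the groups. The 5 fibroblast markers reached 60.6 to 83.3 CPM in siPAX8, siSOX17 and siDual and 25.2 to 27.8 CPM in siMECOM and siWT1, against 34.8 to 45.2 CPM in controls. The 5 leukocyte markers reached 34.4 to 44.3 CPM in siPAX8, siSOX17 and siDual and 9.72 to 12.7 CPM in siMECOM and siWT1, against 18.6 to 22.4 CPM in controls. The 3 endothelial markers summed to 19.1 to 19.5 CPM in siPAX8 and 6.01 to 9.001 CPM in the other knockdowns, against 8.24 to 9.73 CPM in controls, and the 3 erythroid markers to at most 2.4 CPM in any library. COL1A1 and CD68 made up most of the fibroblast and leukocyte sums, PTPRC had 0 to 6 counts and LYZ 0 to 4, no marker was at 0 in every library, and the part of these markers in the results below was not tested.

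All 7 members passed the filter on low counts. To set genes beside each other, levels were expressed per length, as TPM (length-scaled transcript abundance), computed from the counts and the deposited exon length. In controls CA2 was the most abundant member at 81.8 TPM, rank 1725 of the 21032 genes tested. CA12 followed at 37.5 TPM (rank 3729). The other 5 were far lower, with CA11 at 4.30 TPM, CA5B at 2.54 TPM, CA9 at 1.79 TPM, CA13 at 0.965 TPM and CA8 at 0.944 TPM. The last 2 differed by less than their spread between control libraries.

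The summed level of the 7 transcripts differed several-fold between groups and CA2 decided much of it. The sum was 27.2 ± 3.13 TPM in siPAX8, 26.4 ± 2.01 TPM in siSOX17, 25.5 ± 2.26 TPM in siDual, 259.3 ± 2.24 TPM in siMECOM and 117.2 ± 3.81 TPM in siWT1 (SD, n = 2 each), against 129.8 ± 13.99 TPM in controls (SD, n = 4). CA2 made up 26.9% of the sum in siPAX8, 12.6% in siSOX17, 8.27% in siDual, 83.8% in siMECOM and 73.8% in siWT1, against 63.1% in controls. The surface pair CA9 and CA12 made up 31.4% in siPAX8, 56.9% in siSOX17, 58.1% in siDual, 11.0% in siMECOM and 13.5 to 14.5% in siWT1, against 30.1% in controls. Within that pair CA9 alone accounted for 42.1 and 49.4% of the whole sum in the 2 siDual libraries, against a mean of 1.37% in controls. The acatalytic CA8 and CA11 together held 29.4% in siPAX8, 18.7 to 21.3% in siSOX17, 22.6% in siDual, 3.90% in siMECOM and 9.59% in siWT1, against 4.07% in controls. The scale bears on these sums: the median over all tested genes of the log2 ratio of TPM to controls was -0.36 in siPAX8, -0.43 in siSOX17, -0.49 in siDual, -0.11 in siMECOM and -0.08 in siWT1, while on the scaled CPM used for the tests it was -0.01 to 0.01. Shares within the family do not depend on this. Small differences do, and for CA13, CA5B and CA11 some change sign between the scales, as said at each gene. In bulk RNA of this kind, fewer cells expressing a gene and less RNA per cell cannot be told apart.

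**Figure D1:**
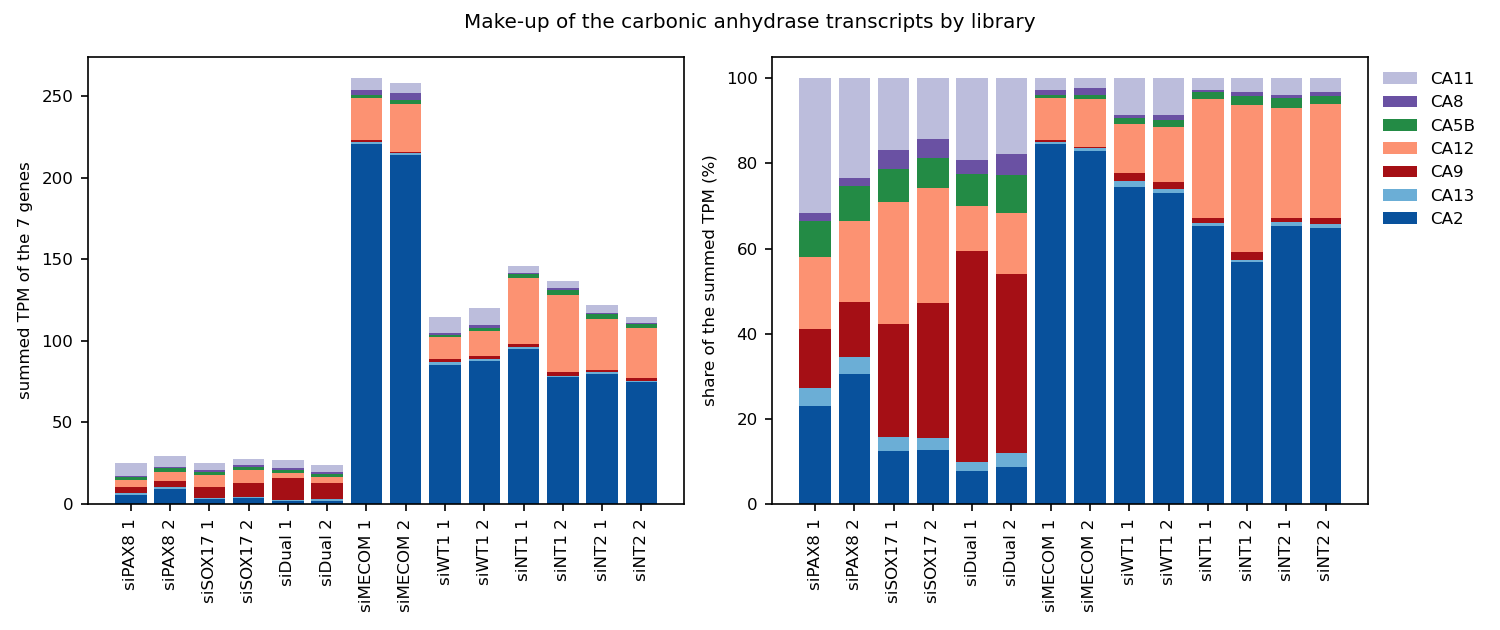
Summed TPM of the 7 genes in each of the 14 libraries (left) and the share of each gene in that sum in percent (right), 1 stacked bar per library. The blue CA2 block carries 83.8% of the sum in siMECOM, 8.27% in siDual and 63.1% in controls, and the dark red CA9 block reaches 42.1 and 49.4% in the siDual libraries.

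Before the members in turn, their calls are set against the background. Calls rest on the quasi-likelihood test of edgeR, with Benjamini-Hochberg adjustment over all 21032 genes tested and a threshold of 0.05. In siPAX8, 5 of the 7 members were called (CA9, CA11 and CA13 higher, CA2 and CA12 lower), where 52.2% of all genes were called, 26.9% higher and 25.4% lower. In siMECOM, 6 of 7 were called (CA2, CA8, CA11 and CA13 higher, CA9 and CA12 lower), where 32.6% of all genes were called, 16.5% higher and 16.1% lower. That count was 3 when siNT2 alone served as the control, and between 3 and 6 when libraries were left out in turn, lowest without siMECOM replicate 2. In siWT1, 4 of 7 were called (CA11 and CA13 higher, CA12 and CA5B lower), where 37.5% of all genes were called, 17.7% higher and 19.8% lower. It was 2 without siWT1 replicate 1, the lowest with a library left out. With 7 genes these counts describe the members, and nothing particular to the family is read from them. Between the 2 control pools, siNT1 against siNT2, CA12 was the single member called, where 0.3% of all genes were called.

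For siSOX17 and siDual, used to pick the family, counts are given past 2-fold with no test. In siSOX17, 3 of 7 members were past 2-fold (CA9 higher, CA2 and CA12 lower), where 16.3% of all genes were, 8.94% higher and 7.34% lower. In siDual it was the same 3 of 7, where 18.3% of all genes were, 9.81% higher and 8.5% lower. Nothing is read from these shares. Median log2 fold changes over the 7 members were 0.20 in siPAX8, 0.20 in siSOX17, 0.20 in siDual, 0.51 in siMECOM and 0.32 in siWT1, beside medians over all genes between -0.01 and 0.01. The members thus went in both directions in each group.

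**Figure D2:**
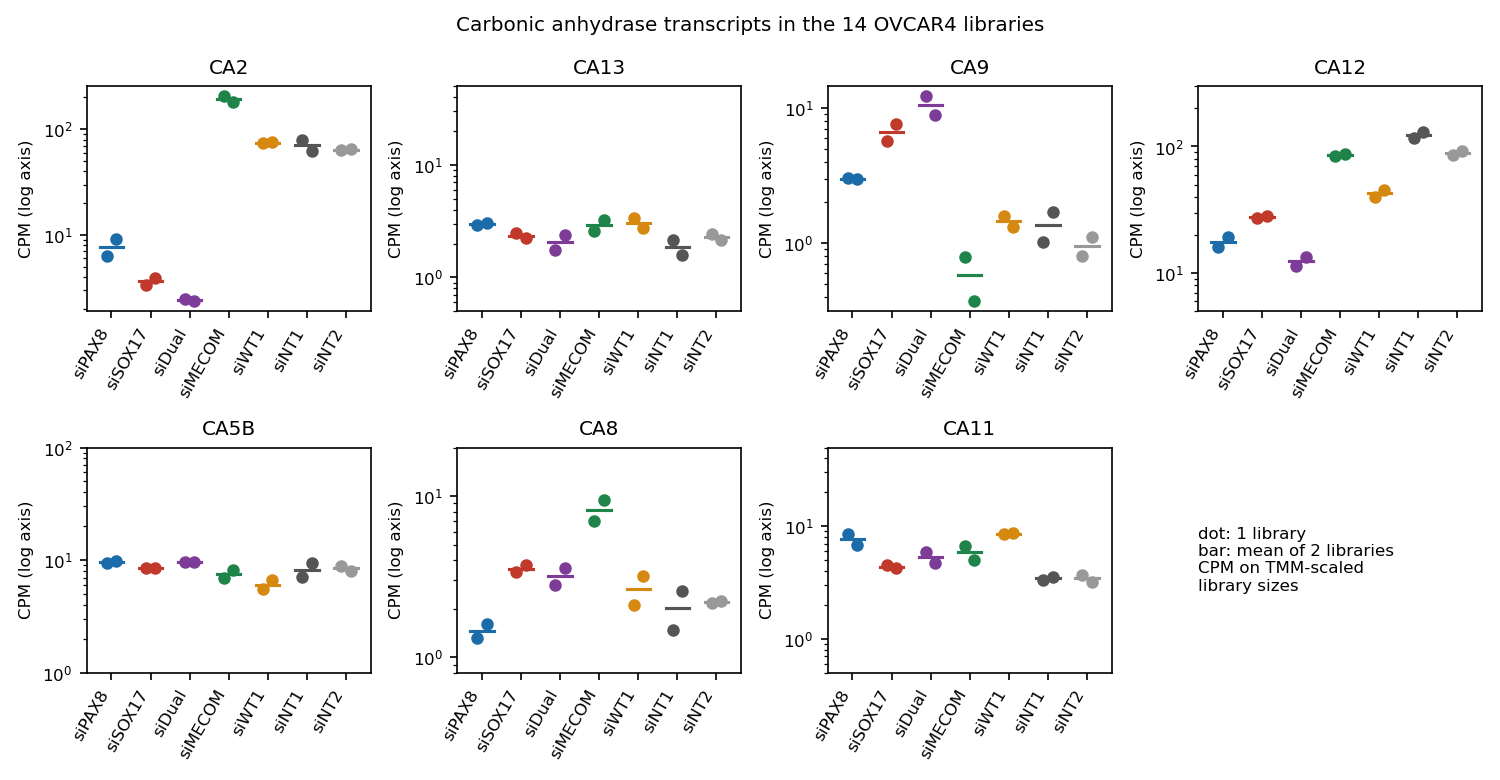
CPM (log axis) of each gene in each library, 1 panel per gene, with dots for libraries and bars for the mean of 2 libraries. CA2 spans from 2.36 CPM in siDual to 205.4 CPM in siMECOM, CA9 runs the other way, and CA12 is highest in the non-targeting groups. The opposite changes of CA2 and CA9 on SOX17 loss led to the choice of the family.

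CA2 had the widest range of the family and responded in opposite directions to loss of PAX8 and of MECOM. The gene (ENSG00000104267.9, chromosome 8, 85463852 to 85481493, plus strand, hg38) encodes a fast, broadly expressed cytosolic enzyme. It was measured at 6.37 and 9.07 CPM in siPAX8, 3.38 and 3.90 CPM in siSOX17, 2.48 and 2.36 CPM in siDual, 205.4 and 182.8 CPM in siMECOM and 74.8 and 75.0 CPM in siWT1, against 78.4 and 62.6 CPM in siNT1 and 63.4 and 64.6 CPM in siNT2. No siPAX8, siSOX17 or siDual library came near the lowest control library, both siMECOM libraries lay above the highest, and the siWT1 libraries fell inside the control range. In order, the groups ran from siMECOM through siWT1 and the controls, which overlapped, to siPAX8, siSOX17 and siDual, whose libraries did not overlap with each other.

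CA2 fell to 11.5% of the control mean in siPAX8, a log2 fold change of -3.12 ± 0.13 (SE; edgeR adjusted p = 3.04e-13). In siMECOM it rose to 289% of the control mean, with a log2 fold change of 1.53 ± 0.10 (adjusted p = 4.83e-10). In siWT1 the log2 fold change was 0.16 ± 0.10 (adjusted p = 0.225; 95% interval -0.05 to 0.37). As a description, it was at 5.42% of the control mean in siSOX17 (log2 fold change -4.21 ± 0.14) and at 3.60% in siDual (-4.80 ± 0.15). Even in siDual the 2 libraries held 93 and 105 counts of CA2, so the low values rest on more than a few reads. SOX17 itself averaged 229.2 CPM in siMECOM, against 110.6 CPM in controls (log2 fold change 1.05 ± 0.09), and MECOM averaged 44.6 CPM in siSOX17, against 129.9 CPM in controls. The levels of CA2 and SOX17 were thus both higher in siMECOM. In siSOX17 the siRNA targets SOX17 and the fall of CA2 led to the choice of the family, so nothing is read from that group. In siPAX8, where CA2 was at 11.5% of the control mean, SOX17 was at 72.7%. Whether these movements are linked was not tested.

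CA13, the other cytosolic enzyme, did not follow CA2. The gene (ENSG00000185015.7, chromosome 8, 85220587 to 85284073, plus strand) had 2.91 and 3.03 CPM in siPAX8, 2.46 and 2.23 CPM in siSOX17, 1.76 and 2.39 CPM in siDual, 2.60 and 3.23 CPM in siMECOM and 3.35 and 2.72 CPM in siWT1, against 2.15, 1.58, 2.41 and 2.13 CPM in controls. In CPM the libraries of siPAX8, siMECOM and siWT1 all lay above the highest control library, by a narrow margin. In TPM both siWT1 libraries and 1 of siMECOM did, and 0 of siPAX8. The log2 fold changes were 0.53 ± 0.17 in siPAX8 (adjusted p = 0.0124), 0.51 ± 0.17 in siMECOM (adjusted p = 0.0251) and 0.57 ± 0.17 in siWT1 (adjusted p = 0.0111). None of these calls held under every alternative. Against siNT2 alone they were 0.39 (adjusted p = 0.116), 0.36 (0.183) and 0.42 (0.108), and without siNT1 replicate 2, the lowest control, 0.42 (0.0587), 0.40 (0.103) and 0.46 (0.0547). The siPAX8 call also went without siPAX8 replicate 2 (0.0742), the siMECOM call without siMECOM replicate 2 (0.324), without siNT2 replicate 2 (0.0773) and with DESeq2 (0.0575), and the siWT1 call without siWT1 replicate 1 (0.173). In siSOX17 and siDual the values were 0.20 ± 0.18 and 0.02 ± 0.18. The log2 ratios of TPM had the other sign, at -0.23 and -0.48, beside medians of -0.43 and -0.49 over all genes.

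CA9, the hypoxia marker at the cell surface, showed nearly the reverse order of CA2. The siSOX17 and siDual part of that order follows from how the family was chosen, so nothing is read from it. The gene (ENSG00000107159.12, chromosome 9, 35673856 to 35681159, plus strand) was at 3.02 and 2.99 CPM in siPAX8, 5.70 and 7.59 CPM in siSOX17, 12.3 and 8.98 CPM in siDual, 0.792 and 0.370 CPM in siMECOM and 1.58 and 1.32 CPM in siWT1, against 1.01, 1.70, 0.802 and 1.10 CPM in controls. The siDual, siSOX17 and siPAX8 libraries stood above all controls, in that order and without overlap. Those of siWT1 lay within the control range, and those of siMECOM below it, replicate 1 narrowly and replicate 2 clearly.

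CA9 rose in siPAX8 by a log2 fold change of 1.39 ± 0.23 (edgeR adjusted p = 3.95e-05). The value in siWT1 was 0.35 ± 0.25 (adjusted p = 0.3). It fell in siMECOM, at -0.995 ± 0.31 (adjusted p = 0.0183), on 36 and 19 counts. That call did not survive the loss of siMECOM replicate 2 (-0.53, adjusted p = 0.331) or of siNT1 replicate 2 (-0.78, adjusted p = 0.0784), nor siNT2 alone as the control (-0.73, adjusted p = 0.149). As a description, the log2 fold change was 2.54 ± 0.21 in siSOX17 and 3.21 ± 0.20 in siDual. ARHGEF39, a gene on the opposite strand that overlaps the start of CA9, could share reads with it because the strand used in counting is not given in the sources used here. ARHGEF39 fell slightly in siPAX8 (-0.22 ± 0.09, adjusted p = 0.0356), the opposite direction to CA9, and was 0.21 ± 0.08 in siMECOM (adjusted p = 0.0634), again opposite to CA9. It was 0.43 ± 0.08 in both siSOX17 and siDual, the same sign as CA9 there, and -0.12 ± 0.08 in siWT1 (adjusted p = 0.268). ARHGEF39 was the more abundant gene, at means of 17.1 CPM in controls, 22.9 CPM in siSOX17 and 22.9 CPM in siDual. The means of CA9 were 1.15, 6.64 and 10.6 CPM in the same groups. The part of shared reads in the CA9 values was not tested.

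CA12, the other surface enzyme, was lower on average in all 5 knockdown groups, as the only member in CPM and with CA5B in TPM. The gene (ENSG00000074410.13, chromosome 15, 63321378 to 63382161, minus strand) had 16.1 and 19.5 CPM in siPAX8, 27.0 and 28.4 CPM in siSOX17, 11.4 and 13.3 CPM in siDual, 83.5 and 86.5 CPM in siMECOM and 39.7 and 45.5 CPM in siWT1, against 116.0 and 130.7 CPM in siNT1 and 86.3 and 91.6 CPM in siNT2. In CPM every group except siMECOM lay below all control libraries, and in TPM siMECOM did too. From high to low the order was controls, siMECOM, siWT1, siSOX17, siPAX8 and siDual, and only the first pair overlapped.

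CA12 fell in siPAX8 with a log2 fold change of -2.56 ± 0.10 (edgeR adjusted p = 1.85e-13) and in siWT1 with -1.30 ± 0.09 (adjusted p = 1.9e-09). In siMECOM it was -0.30 ± 0.08 (adjusted p = 0.0101). The 2 control pools differed in CA12 by more than that, with siNT1 above siNT2 by a log2 fold change of 0.47 ± 0.10 (adjusted p = 0.0412). This difference between pools lost its call when 1 of 6 libraries was left out (each siMECOM and each control library), at 0.38 to 0.56. The siMECOM change was -0.07 against siNT2 alone (adjusted p = 0.668), -0.28 without siMECOM replicate 1 (0.084) and -0.33 without siMECOM replicate 2 (0.0504). As a description, siSOX17 was at -1.92 ± 0.09 and siDual at -3.08 ± 0.10. They were -1.68 and -2.84 against siNT2 alone, and -2.16 and -3.31 against siNT1 alone.

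CA5B, the mitochondrial enzyme, differed little between groups. The gene (ENSG00000169239.12, chromosome X, 15688830 to 15788409, plus strand) had 9.39 and 9.85 CPM in siPAX8, 8.46 and 8.60 CPM in siSOX17, 9.66 and 9.65 CPM in siDual, 6.93 and 8.24 CPM in siMECOM and 5.53 and 6.61 CPM in siWT1, against 7.05, 9.44, 8.92 and 8.08 CPM in controls. In CPM only the siWT1 group lay below every control library with both libraries. In TPM the siSOX17 and siDual libraries did too, with log2 ratios of -0.39 and -0.28, and that of siPAX8 was -0.16. The medians over all genes were lower still, at -0.43 in siSOX17, -0.49 in siDual and -0.36 in siPAX8. CA5B fell in siWT1, at a log2 fold change of -0.47 ± 0.12 (adjusted p = 0.00542), while siPAX8 (0.20 ± 0.12, adjusted p = 0.173) and siMECOM (-0.14 ± 0.12, adjusted p = 0.4) were not called. The siWT1 value was -0.35 without siWT1 replicate 1 (adjusted p = 0.107). A copy of the gene, the pseudogene CA5BP1, overlaps it and had mean levels of 15.7 to 20.3 CPM by group, so reads may have been split between them. With both summed, the siWT1 value was -0.12 (adjusted p = 0.376). The log2 fold change of CA5B was 0.02 in siSOX17 (0.24 with CA5BP1 summed) and 0.20 in siDual.

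CA8, an acatalytic relative that binds the inositol trisphosphate receptor ITPR1, was highest in siMECOM. The gene (ENSG00000178538.9, chromosome 8, 60187347 to 60281412, minus strand) had 1.32 and 1.604 CPM in siPAX8, 3.36 and 3.71 CPM in siSOX17, 2.79 and 3.58 CPM in siDual, 7.02 and 9.47 CPM in siMECOM and 2.12 and 3.20 CPM in siWT1, against 1.49, 2.56, 2.18 and 2.22 CPM in controls. In CPM the libraries of siMECOM, siSOX17 and siDual stood above all controls, and those of siPAX8 and siWT1 overlapped with them. In TPM both siMECOM libraries, 1 of siSOX17 and 0 of siDual stood above all controls. Both siPAX8 libraries lay below all controls in TPM, with a log2 ratio of -0.88 beside the median of -0.36 over all genes. CA8 rose in siMECOM by a log2 fold change of 1.96 ± 0.18 (adjusted p = 1.21e-07). It was 0.32 ± 0.21 in siWT1 (adjusted p = 0.237) and -0.54 ± 0.23 in siPAX8 (adjusted p = 0.0591). The siPAX8 value passed the threshold under 7 alternatives, among them no filter (adjusted p = 0.0107). Its size stayed at about -0.54 in each of them apart from leaving out siNT1 replicate 1 (-0.71). Several left out siMECOM or siWT1 libraries, which are not part of this comparison. The count of alternatives is therefore not read as a firmer call. Its description in siSOX17 was 0.73 ± 0.21 and in siDual 0.59 ± 0.21.

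CA11, the acatalytic relative that is secreted, was higher in every knockdown group on the scaled CPM, and in all but siSOX17 in TPM. The gene (ENSG00000063180.8, chromosome 19, 48637942 to 48646312, minus strand) had 8.54 and 6.75 CPM in siPAX8, 4.50 and 4.25 CPM in siSOX17, 5.93 and 4.75 CPM in siDual, 6.69 and 5.03 CPM in siMECOM and 8.46 and 8.67 CPM in siWT1, against 3.35, 3.54, 3.71 and 3.21 CPM in controls. All 10 knockdown libraries lay above all 4 control libraries in CPM. In TPM the siPAX8, siMECOM and siWT1 libraries still did, while 1 siDual and both siSOX17 libraries lay inside the control range, with a log2 ratio of -0.08 in siSOX17 beside the median of -0.43 over all genes. CA11 rose in siPAX8 (log2 fold change 1.15 ± 0.14, adjusted p = 7.39e-07), siMECOM (0.76 ± 0.14, adjusted p = 0.000321) and siWT1 (1.31 ± 0.13, adjusted p = 3.14e-07). The values in siSOX17 and siDual were 0.34 ± 0.15 and 0.62 ± 0.14. SEC1P, a pseudogene on the opposite strand that overlaps CA11, rose in the same 3 tested groups (0.73 in siPAX8, 0.70 in siMECOM and 0.92 in siWT1) on 32 to 91 counts per library. Reads of the overlap cannot be assigned to either gene without the strand.

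**Figure D3:**
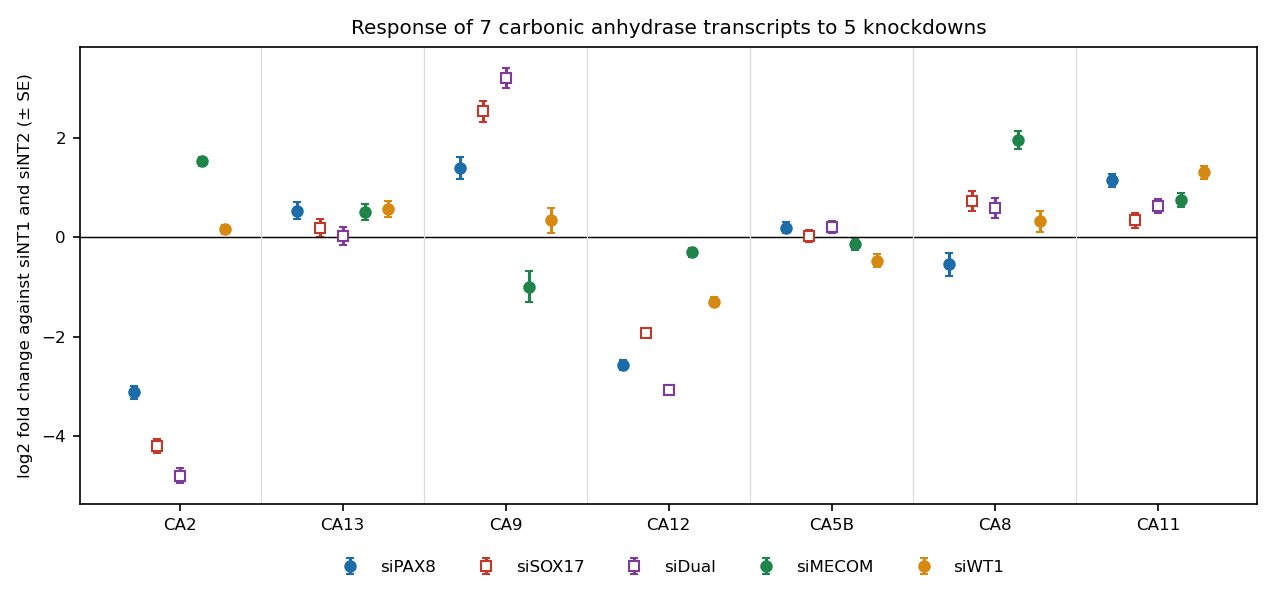
Log2 fold change of each gene against the mean of siNT1 and siNT2 in the 5 knockdown groups, with bars for the standard error; filled circles are tested comparisons and open squares (siSOX17, siDual) are described only. CA2 and CA9 lie on opposite sides of 0 in siPAX8, siSOX17, siDual and siMECOM. In siSOX17 and siDual this follows from how the family was chosen, and the siMECOM call of CA9 was lost under 3 alternatives. CA12 is below 0 in all 5 groups and CA11 above 0 in all 5. In TPM the log2 ratio of CA11 in siSOX17 is -0.08, beside a median of -0.43 over all genes.

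Setting the 3 tested knockdowns against each other shows where their effects on the family differed. The siPAX8 and siMECOM groups differed in 6 of the 7 members, where 47.1% of all genes were called. CA2 was lower in siPAX8 than in siMECOM by a log2 fold change of -4.65 ± 0.14 (edgeR adjusted p = 1.15e-14), CA8 by -2.50 ± 0.24 (5.52e-08) and CA12 by -2.26 ± 0.10 (3.66e-12), while CA9 was higher by 2.39 ± 0.31 (2.76e-06). CA11 (0.39 ± 0.15, adjusted p = 0.0453) and CA5B (0.34 ± 0.14, adjusted p = 0.0496) passed narrowly. CA11 lost its call under 9 alternatives and CA5B under 10. CA13 did not differ between these groups by more than its spread (0.02, adjusted p = 0.935).

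Between siPAX8 and siWT1, 5 of 7 members differed, where 57.4% of all genes were called. PAX8 itself was lower than in controls in both groups, at 17.4% of the control mean in siPAX8 and 56.1% in siWT1. The part of this in the levels of the members was not tested. CA2 (-3.28 ± 0.13, adjusted p = 3.88e-13), CA12 (-1.26 ± 0.10, 4.84e-09) and CA8 (-0.86 ± 0.26, 0.00728) were lower in siPAX8, and CA9 (1.05, adjusted p = 0.00197) and CA5B (0.67 ± 0.14, 0.000445) were higher. The CA8 difference was not called without siPAX8 replicate 1 (-0.73, adjusted p = 0.064) or without siWT1 replicate 2 (-0.54, 0.145). For CA11, which was raised in both groups, the difference was -0.16 (adjusted p = 0.367). For CA13 it was -0.03 (adjusted p = 0.897).

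Between siMECOM and siWT1, again 5 of 7 members differed, where 45.2% of all genes were called. CA2 (1.37 ± 0.12, adjusted p = 2e-08), CA8 (1.64 ± 0.22, 6.3e-06) and CA12 (0.995 ± 0.10, 1.74e-07) were higher in siMECOM. CA9 (-1.34 ± 0.33, adjusted p = 0.00279) and CA11 (-0.55 ± 0.15, 0.00619) were lower there, and both calls were lost without siMECOM replicate 2 (-0.87, adjusted p = 0.07, and -0.35, adjusted p = 0.13). CA13 did not pass (adjusted p = 0.833).

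The siDual group allows the joint loss of PAX8 and SOX17 to be set beside each single loss, as a description since both SOX17 groups led to the choice of the family. Against siPAX8, siDual was lower in CA2 (log2 fold change -1.67 ± 0.17) and CA12 (-0.52 ± 0.11) and higher in CA9 (1.82 ± 0.22) and CA8 (1.13 ± 0.26). It was also lower than siPAX8 in CA11 (-0.52 ± 0.16) and CA13 (-0.51 ± 0.20). Against siSOX17, siDual was lower in CA2 (-0.59 ± 0.19) and CA12 (-1.16 ± 0.11) and higher in CA9 (0.68 ± 0.21). On CA2, CA12 and CA9 siDual thus went beyond either single knockdown, in libraries that did not overlap. It went less far than the sum of the log2 changes of the single knockdowns. For CA2 siDual was at -4.80 beside a sum of -7.33, a difference of 2.53 ± 0.23. In CA12 it was at -3.08 beside -4.48, a difference of 1.40 ± 0.14, and in CA9 at 3.21 beside 3.93, a difference of -0.72 ± 0.31. The CA12 difference was 1.64 against siNT1 alone and 1.17 against siNT2 alone. That of CA2 was 2.30 without siPAX8 replicate 1 and 2.80 without siPAX8 replicate 2. CA11 was at 0.62 in siDual, between the single knockdowns (1.15 in siPAX8 and 0.34 in siSOX17) and below their sum of 1.49 (difference -0.86 ± 0.22). CA8 had changes of opposite sign in the single knockdowns and was at 0.59 in siDual, beside a sum of 0.19 (difference 0.40 ± 0.33). For CA13 the value was 0.02 beside a sum of 0.73 (difference -0.705 ± 0.27), and for CA5B 0.20 beside 0.22 (difference -0.02 ± 0.18). The labels do not give the dose of each pool in siDual. PAX8 itself was higher in siDual than in siPAX8 (log2 fold change 0.54 ± 0.085). SOX17 was already lower in siPAX8 than in controls (-0.46 ± 0.091). The part of these levels in the differences from the sums was not tested.

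CA2 and CA13 lie in a cluster of carbonic anhydrase genes that spans 260.9 kb of chromosome 8, and the neighbours between them were examined for movement with CA2. CA1, an erythrocyte enzyme, had 2 counts in all 14 libraries together. CA3, a cytosolic enzyme best known from muscle, starts at 85373436 and ends at 85449040 on the plus strand, 14.8 kb before CA2. Its mean level was 3.44 CPM in siPAX8, 1.95 CPM in siSOX17, 1.88 CPM in siDual, 17.5 CPM in siMECOM and 1.75 CPM in siWT1, against 5.42 CPM in controls. CA3 rose in siMECOM (log2 fold change 1.70 ± 0.14, adjusted p = 3.07e-08), as did CA2, and fell in siPAX8 (-0.64 ± 0.17, adjusted p = 0.00388). The siPAX8 call was lost against siNT2 alone (-0.45, adjusted p = 0.0694) and without siPAX8 replicate 1 (-0.55, 0.053). CA3 parted from CA2 in siWT1, where it fell by 1.62 on the log2 scale (± 0.19 SE, adjusted p = 1.65e-06) while CA2 was at 0.16 ± 0.10. It was -1.46 ± 0.19 in siSOX17 and -1.51 ± 0.19 in siDual.

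The antisense gene CA3-AS1 (85441851 to 85464915, minus strand) overlaps the end of CA3 and the first 1.1 kb of CA2, so the 3 cannot be fully separated without the strand. It rose in siMECOM (1.47 ± 0.17, adjusted p = 1.59e-06) and fell in siPAX8 (-0.76 ± 0.21, adjusted p = 0.00495) and siWT1 (-0.65 ± 0.20, adjusted p = 0.016). The siWT1 call was lost against siNT2 alone (-0.57, adjusted p = 0.0712) and without siWT1 replicate 1 (-0.53, 0.153). CA3-AS1 was at -1.65 in siSOX17 and -1.80 in siDual. CA13, at the far end of the cluster, was not called lower in any tested group. Of the 8 family members outside the 7 described, CA3 and CA14 passed the filter on low counts. CA14 had 14 to 46 counts per library and was not called. CA4, CA5A, CA6 and CA7 had 7, 5, 3 and 30 counts over all libraries, and CA10 had 0.

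**Figure D4:**
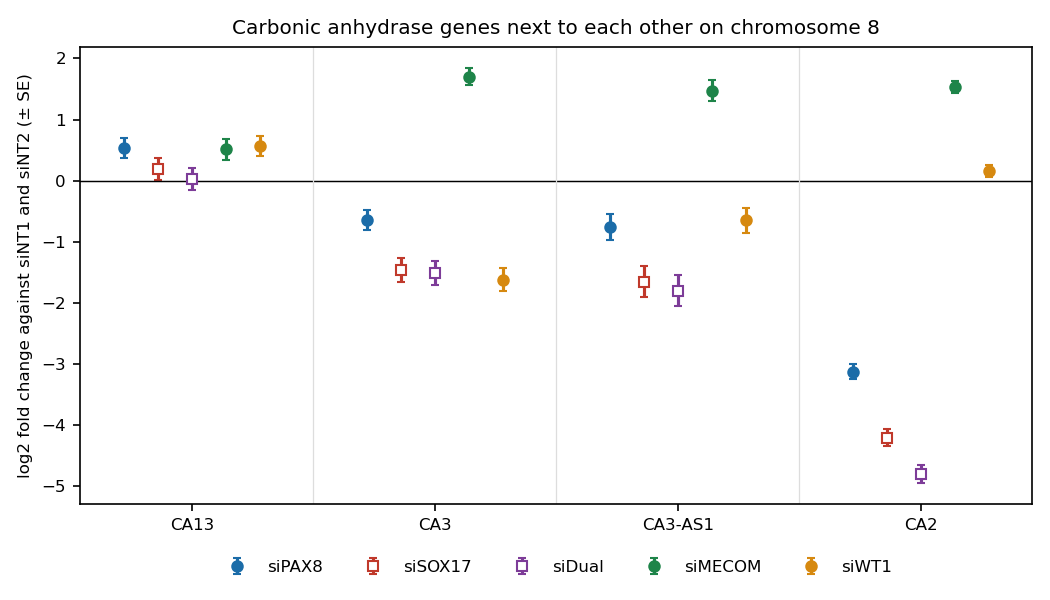
Log2 fold change against the mean of siNT1 and siNT2 (bars are standard errors) for CA13, CA3, CA3-AS1 and CA2, in their order along chromosome 8; open squares are described only. CA3, CA3-AS1 and CA2 are above 0 in siMECOM and below 0 in siPAX8, siSOX17 and siDual, CA3 and CA3-AS1 are also below 0 in siWT1, and CA13 is at or above 0 throughout. In TPM the log2 ratios of CA13 in siSOX17 and siDual are -0.23 and -0.48, beside medians of -0.43 and -0.49 over all genes.

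Since CA9 is a classical HIF target, 29 other HIF target genes were set beside it. In siPAX8, where CA9 rose, 13 of the 29 rose and 2 fell, with a median log2 fold change of 0.17 beside 0.00 over all genes. Against that, 26.9% of all genes were higher and 25.4% lower. ANGPTL4, an inhibitor of lipoprotein lipase, was among the largest increases (4.04 ± 0.13, adjusted p = 2.46e-14). The adenylate kinase gene AK4 (-0.44) and the enolase gene ENO1 (-0.25) fell, and the count of lower genes was 1 against siNT2 alone and without siNT2 replicate 2. In siMECOM, where CA9 was lower, 20 of the 29 fell and 0 rose, with a median of -0.36 beside 0.01 over all genes, of which 16.1% were lower and 16.5% higher. Against siNT2 alone the counts were 17 and 1, and leaving out a library left 15 to 20 lower. LOX, a collagen crosslinking enzyme (-1.57 ± 0.10), and VEGFA, the vascular growth factor (-0.96 ± 0.08), had the largest decreases.

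In siWT1, where CA9 was not called, 16 of the 29 fell and 3 rose, with a median of -0.30, where 19.8% of all genes were lower and 17.7% higher. The stress gene DDIT4 (-1.06) was among the largest decreases, and the hexokinase gene HK2 (0.66) and the kinase gene PDK1 (0.51) rose. Past 2-fold and with no test, 9 of the 29 were higher and 0 lower in siSOX17 (median 0.74). In siDual 10 were higher and 0 lower (median 0.73). Over all genes 8.94% were higher and 7.34% lower past 2-fold in siSOX17 (median -0.006), and 9.81% and 8.5% in siDual (median -0.004). Among the 29, ANGPTL4 led in both groups, at 5.25 in siSOX17 and 5.89 in siDual. The medians of the list and CA9 thus had the same sign in siPAX8, siSOX17, siDual and siMECOM. In siWT1 they did not, and the 5 comparisons share their control libraries. The family was chosen on the rise of CA9 with SOX17 loss, so nothing is read from its sign in siSOX17 and siDual. The siMECOM call of CA9 was lost under 3 alternatives.

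**Figure D5:**
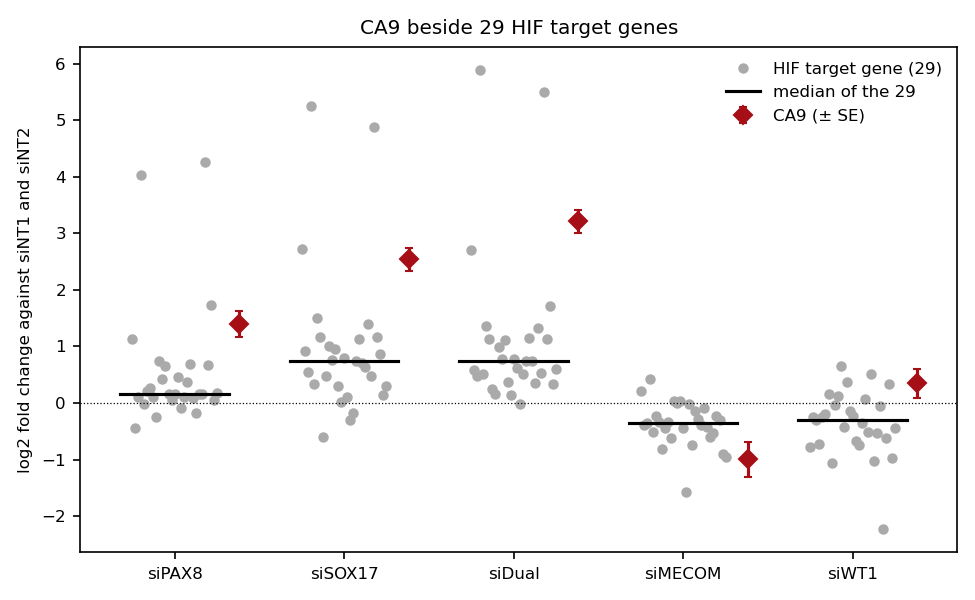
Log2 fold change against the mean of siNT1 and siNT2 for 29 HIF target genes (grey dots, with a black bar for their median) and for CA9 (red diamonds with standard error) in the 5 knockdown groups. The medians are 0.17 in siPAX8, 0.74 in siSOX17, 0.73 in siDual, -0.36 in siMECOM and -0.30 in siWT1. CA9 lies further from 0 than the median in all 4 groups other than siWT1, where it is on the other side of 0. In siSOX17 and siDual CA9 is described only, since its rise on SOX17 loss led to the choice of the family.

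Genes for the factors of the HIF pathway were listed as well. Of 11 measured, 3 rose and 2 fell in siPAX8, 3 rose and 2 fell in siMECOM, and 3 rose and 3 fell in siWT1. Of all genes 52.2% were called in siPAX8, 32.6% in siMECOM and 37.5% in siWT1, so these counts are read as a description of single genes. EPAS1, which encodes HIF-2 alpha, rose in siPAX8 (0.56 ± 0.07) and fell in siMECOM (-0.87 ± 0.07) and siWT1 (-1.01 ± 0.07). HIF1A, which encodes HIF-1 alpha, fell in siPAX8 (-0.51 ± 0.08) and siWT1 (-0.45 ± 0.08). ARNT2, a dimerisation partner, fell in siPAX8 (-1.70) and rose in siWT1 (0.36). EGLN3, an oxygen-sensing prolyl hydroxylase that is itself HIF-induced, rose in siPAX8 (0.55) and siMECOM (0.79). CITED2, which competes with HIF for a coactivator, rose in siMECOM (0.75) and siWT1 (0.33), and VHL, the ligase subunit that marks HIF for destruction, fell in siMECOM (-0.24). Past 2-fold with no test, 0 were higher and 0 lower in siSOX17 (median 0.53 beside -0.006 over all genes). In siDual EGLN3 (1.04) was higher, and ARNT2 (-1.33) and HIF3A (-1.06 ± 0.82) were lower (median 0.11 beside -0.004). Over all genes 8.94% were higher and 7.34% lower past 2-fold in siSOX17, and 9.81% and 8.5% in siDual. HIF proteins are controlled largely after transcription, so all of these values are transcript levels only.

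Carbonic anhydrases work with transporters of bicarbonate, protons and lactate. Of 26 such genes 20 were tested, and their counts of calls stand beside the same shares over all genes, 52.2% in siPAX8, 32.6% in siMECOM and 37.5% in siWT1. In siPAX8, 7 rose and 4 fell, among them the sodium-proton exchanger SLC9A3 (0.95) upward and, with the largest decreases, SLC9A2 (-1.55) and the bicarbonate cotransporter SLC4A5 (-1.39). In siMECOM, 5 rose and 7 fell. The anion exchanger SLC26A4 (2.93) and the chloride and bicarbonate channel CFTR (1.603) rose most there, and SLC9A2 (-0.92) and SLC4A5 (-0.90) fell most. In siWT1, 3 rose and 3 fell, led by the cotransporter SLC4A7 (0.91) and the lactate carrier SLC16A1 (0.61) upward and SLC26A9 (-1.28) and SLC4A3 (-1.08) downward. Past 2-fold with no test, siSOX17 had 2 higher, led by SLC4A4 (2.62), and 3 lower, among them SLC4A5 (-1.72) and CFTR (-1.54). In siDual 2 were higher and 4 lower, with CFTR at -1.62. Over all genes 8.94% were higher and 7.34% lower past 2-fold in siSOX17, and 9.81% and 8.5% in siDual. CFTR did not pass in siPAX8, at -0.67 ± 0.28 (adjusted p = 0.0539), or in siWT1, at 0.32 ± 0.24 (0.314).

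For CA12 the oestrogen receptor axis was listed, with 4 of 7 genes tested. GREB1, an oestrogen-induced gene, rose in siPAX8 (1.53 ± 0.40, adjusted p = 0.00342) and siMECOM (1.70 ± 0.39, 0.00233), and ESR1, the receptor gene, rose in siMECOM (1.34 ± 0.39, 0.0126). The transcription factor gene XBP1 fell in siPAX8 (-0.45), siMECOM (-0.64) and siWT1 (-0.27), as CA12 did. Past 2-fold with no test, ESR1 and GREB1 were higher in siSOX17 (1.69 and 1.58) and siDual (1.30 and 1.87), where CA12 was lower. ESR2 was at -1.66 ± 0.78 in siDual.

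Genes whose log2 CPM over the 14 libraries was most like that of CA2, CA9 and CA12 were found by Pearson's r among 11919 protein-coding genes. The 14 points come in 7 groups, so r reflects mostly differences between knockdowns and is given as a description. Closest to CA2 were PATZ1 (r = 0.984), TAF4 (0.983), LRRCC1 (0.982), MKX (0.981) and HDGFL3 (0.980). Their ranges were narrower than that of CA2, with PATZ1 at 20.1 CPM in siDual and 40.6 CPM in siMECOM, against 37.4 CPM in controls. For CA9 they were PAQR5 (0.979), FHL2 (0.968), RAP1B (0.963), SLA2 (0.962) and TMEM86A (0.961). FHL2 averaged 59.2 CPM in siPAX8, 119.9 CPM in siSOX17, 116.4 CPM in siDual, 25.8 CPM in siMECOM and 43.7 CPM in siWT1, against 31.7 CPM in controls. For CA12 they were ZBED6CL (0.980), CDCA5 (0.979), NUP62 (0.975), XRCC3 (0.973) and RNF157 (0.972). ZBED6CL averaged 1.77 CPM in siPAX8, 2.85 CPM in siSOX17, 1.09 CPM in siDual, 8.65 CPM in siMECOM and 5.91 CPM in siWT1, against 16.8 CPM in controls. No HIF target of the list was among the 5 closest genes to CA9. The list holds 29 genes beside 11919 candidates, so nothing is read from this absence.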

How the data were processed

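RNA from 14 OVCAR4 libraries was sequenced on a BGI instrument, per the labels. The deposited values were raw whole-number read counts per gene with summed exon length, on hg38. The submitters' processing notes name STAR 2.5.1b and featureCounts 1.6.3; strand setting and annotation release are not given in the sources used here. Of 58219 identifiers, 57881 matched GENCODE 29, the source of names and positions. The edgeR 4.0.16 fit (R 4.3.3) used TMM scaling, filterByExpr (minimum count 10, total 15; 21032 genes kept), 1 coefficient per group, 7 residual degrees of freedom (common dispersion 0.00573, biological coefficient of variation 7.57%), the quasi-likelihood test and Benjamini-Hochberg adjustment over all genes, called under 0.05. Samples were grouped by title; values are mean ± SD over libraries and SE for log2 fold changes. CPM and TPM were computed from the counts. The script was tested on simulated data. Alternatives were DESeq2 1.42.0 and its size factors, no or a stricter filter, a replicate block, each control pool alone, no mitochondrial genes, CA5B summed with CA5BP1 and leaving out each library. For CA3, CA3-AS1 and the HIF target counts they were added after seeing the data.

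Named genes were the 7 members, the targeted genes, the neighbours and overlapping genes of members, the 5 genes closest to CA2, CA9 and CA12, and from each list at most 2 called genes per direction with the largest change. A few genes chosen this way are left out of the text but counted in their lists. The members and lists were chosen with earlier results of these data known.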

Additional observations from a re-analysis of the deposited data

Results flagged for a closer look

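CA2 in the 4 control libraries had 1 library apart from the others: siNT1 replicate 1 at 78.4 CPM, against 62.6 to 64.6 CPM in the other 3. On the log2 scale its gap to the nearest library was 0.862 of the whole range, above the 95% critical value for 4 samples. Chance flags about 1 in 20 such groups, and 7 genes were examined in this way. Leaving that library out changed no call on CA2.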

How the results depend on the processing

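The 7 members and 7 tested comparisons gave 49 tested results, of which 32 were called. Under the 23 settings tried, 20 of the 32 kept their call throughout and 12 lost it under at least 1. Of 1917 values compared over all members and settings, 1827 kept their side of the threshold or, where untested, moved by less than the spread between replicates, 48 lost and 13 gained a call, 29 untested values moved by more, and 0 called values reversed. The calls that stood under all settings include CA2, CA12, CA9 and CA11 in siPAX8, CA2, CA8 and CA11 in siMECOM, and CA12 and CA11 in siWT1.

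Against siNT2 alone, 3 members were called in siMECOM. Leaving out libraries gave 4 to 6 members in siPAX8, 3 to 6 in siMECOM, 2 to 4 in siWT1, 0 to 1 between siNT1 and siNT2, 4 to 6 between siPAX8 and siMECOM, 4 to 5 between siPAX8 and siWT1 and 3 to 6 between siMECOM and siWT1. Over all genes it gave 4096 to 7044 calls in siMECOM, against 6857 with every library. Between the control pools 63 genes were called, and 232 without a filter, 150 with a replicate block, 153 with DESeq2 and 11 to 77 with a library left out. The cause of these shifts was not tested.

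Replicate numbers paired the libraries weakly at most: deviations of same-numbered libraries correlated at -0.018 to 0.161 over 21 pairs of groups (median 0.072), with 7 above 0.1. With the replicate block the siPAX8 change of CA8 was -0.54 (adjusted p = 0.0113) and the siMECOM to siWT1 difference of CA5B 0.32 (adjusted p = 0.0397), both newly called, and no other call on a member changed. Depth limits CA9 in siMECOM, on 36 and 19 counts.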
